A study of Mus musculus with 12 samples.

Results

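Renal gluconeogenesis and the first step of fructose use were followed here through 8 genes, taken by their symbols from the 50433 gene rows measured in tubular epithelial cells (TECs) and the 50434 gene rows measured in neutrophils (PMNs). The group comprises Pcx, Pck1, Pck2, Fbp1, G6pc, Slc37a4, Slc2a2 and Khk. All 8 were found in both tables. All 8 passed the filter on low counts in TECs, among 14734 genes tested, and 4 of the 8 passed it in PMNs, among 10134 genes tested.

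Wild-type male C57BL/6J mice, 8 to 12 weeks old, underwent bilateral clamping of the renal pedicles for 35 minutes followed by reperfusion, a model of ischemia/reperfusion injury (IRI). Glutamine was given intravenously as the dipeptide L-alanyl-L-glutamine at 0.5 g per kg body weight, and vehicle animals received 0.9% saline; dosing was 15 minutes after reperfusion as described for the sequenced TECs, 4 hours as described for several other experiments, and is not given for the PMNs in the sources used here. Cells were taken 24 hours after IRI: TECs from kidney, sorted as CD45- and Prominin-1+, and PMNs from blood. Each cell type had 3 glutamine and 3 vehicle libraries, and every group had IRI, so glutamine was compared with vehicle in injured animals only and no uninjured group was analysed here. The TEC libraries are named by the numbers in their labels (vehicle replicates 3, 4 and 5, glutamine replicates 1, 2 and 3), whereas the PMN numbers only name a library. The labels do not say that each library came from a separate mouse, so the p-values measure the spread between these libraries.

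The kidney makes glucose from lactate, glutamine, glycerol and fructose, and it does so in the proximal tubule. Carbon from lactate or glutamine passes through oxaloacetate and phosphoenolpyruvate and then back up the shared steps of glycolysis, and most of the enzymes studied here run the steps that glycolysis cannot reverse. Fructose joins as trioses, once ketohexokinase has phosphorylated it and it has been split, which is past the carboxylase and carboxykinase steps and ahead of those of Fbp1 and G6pc. The free glucose leaves the cell through a transporter on the blood side. Loss of these enzymes from the proximal tubule is a known feature of acute kidney injury.

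In the RefSeq annotation of GRCm38.p6 the 8 protein-coding genes lie on separate chromosomes: Pcx at chr19:4510472-4621752, Pck1 at chr2:173153073-173159274, Pck2 at chr14:55540263-55550020, Fbp1 at chr13:62864753-62888298, G6pc at chr11:101367716-101377903, Slc37a4 at chr9:44396946-44402966, Slc2a2 at chr3:28697903-28728361 and Khk at chr5:30921436-30931248. Fbp1 is on the minus strand and the others are on the plus strand. The sequence upstream of Pck1 and of G6pc is shown because these genes had the lowest and the highest fold change of the group. The motifs were searched in the 250 bases before the RefSeq transcription start (mouse GRCm38.p6), and positions count back from that start. GENCODE opens Pck1 25 bases and G6pc 155 bases further upstream, so the part printed, 5′ to 3′ on the plus strand, ends before the GENCODE start: 225 bases at chr2:173152823-173153047 for Pck1 and 95 bases at chr11:101367466-101367560 for G6pc. Capitals mark matches to 6 short motifs searched on both strands.
Pck1: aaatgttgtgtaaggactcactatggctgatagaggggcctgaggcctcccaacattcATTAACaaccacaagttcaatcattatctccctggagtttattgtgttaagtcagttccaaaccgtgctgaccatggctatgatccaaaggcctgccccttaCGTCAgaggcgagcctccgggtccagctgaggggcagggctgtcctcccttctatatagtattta
G6pc: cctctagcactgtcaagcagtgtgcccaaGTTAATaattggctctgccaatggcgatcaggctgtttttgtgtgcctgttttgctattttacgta

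In the Pck1 sequence the capitals are ATTAAC at -192 to -187, which is the opposite strand of the HNF1 motif letters GTTAAT, and CGTCA at -90 to -86, the opposite strand of the core TGACG of the cAMP response element. In the G6pc sequence they are GTTAAT at -221 to -216. The unprinted rest of the G6pc window also held TGACCT at -54 to -49, the opposite strand of the nuclear receptor motif AGGTCA, and the TATA box letters TATAAA at -29 to -24. The other motifs searched were CAAAGT (HNF4) and TGTTTAC (FOXO). The 8 genes have 11 annotated promoters, since Slc37a4 has 3, of which the first and second overlap, and Pcx has 2, so matches were counted per promoter. GTTAAT was in 3 of the 11 (G6pc, Khk and Pck1) and in 6.43% of the 32851 RefSeq mouse promoters of the same length. TGACG was in 4 of the 11 (Khk, Pck1 and the overlapping pair of Slc37a4) and in 17.8% of all, AGGTCA in 3 (G6pc, Slc2a2 and the first of Slc37a4) and in 14.0%, CAAAGT in 2 (Pck2 and Slc2a2) and in 12.6%, TATAAA in 2 (G6pc and the third of Slc37a4) and in 12.4%, and TGTTTAC in 0 and in 3.17%. The promoters of Pcx and Fbp1 held none of the 6. These matches describe letters and not bound sites.

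The libraries set the precision. The TEC libraries held 5397371 to 10223463 counts, with the lowest total in glutamine replicate 2, and the PMN libraries 20226512 to 21879769. TEC libraries resembled each other (Pearson r across genes 0.869 to 0.921), and PMN libraries less so (0.481 to 0.604), although the paired columns deposited for a PMN library agreed at 0.994 to 0.996. In TECs the proximal tubule markers were present (Slc34a1, the sodium-phosphate cotransporter, at 1298 to 2710 CPM (counts scaled to the size of the library), and Lrp2, or megalin, at 137 to 229 CPM), and Ptprc, which encodes CD45, was at 0.102 to 2.74 CPM. Markers of other cells were also read in the TEC libraries. Neutrophil markers summed to 102 to 248 CPM, macrophage markers to 27.5 to 59.8 CPM and endothelial markers to 331 to 538 CPM. Erythroid and platelet markers summed to 345 to 2954 CPM, highest in glutamine replicate 2. In PMNs the neutrophil gene S100a8 was at 6598 to 29022 CPM and Ptprc at 316 to 1149 CPM, and macrophage markers were present in all 6 libraries (C1qb, a complement subunit made by macrophages, at 587 to 3390 CPM).

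Per kb of merged exons, Fbp1 was the most abundant of the 8 genes in TECs and Pck2 the least. By mean CPM, without a length, G6pc was the lowest (15.6 CPM), followed by Slc2a2 (17.3 CPM) and Pck2 (20.4 CPM). The merged exons of Pck2 were the longest of the 8 (7806 bases, from 13 annotated transcripts), which lowers its level per kb. The level of Fbp1 was 184 ± 85.0 CPM per kb of exon (SD over the 6 libraries, both groups together), followed by Khk at 113 ± 37.1, Pck1 at 66.1 ± 25.2 and Pcx at 58.5 ± 10.9 CPM per kb. These 4 genes formed an upper tier, and the lowest library of Pcx was above the highest library of Slc37a4, which stood at 16.2 ± 6.47 CPM per kb. G6pc (6.45 ± 6.24), Slc2a2 (3.01 ± 0.978) and Pck2 (2.61 ± 0.734 CPM per kb) made up the rest. No other neighbours in this order had ranges apart: Fbp1 was above Khk in 5 of 6 libraries, Khk above Pck1 in 4 of 6, Pck1 above Pcx in 3 of 6, Slc37a4 above G6pc in 6 of 6, G6pc above Slc2a2 in 5 of 6 and Slc2a2 above Pck2 in 4 of 6.

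**Figure D1:**
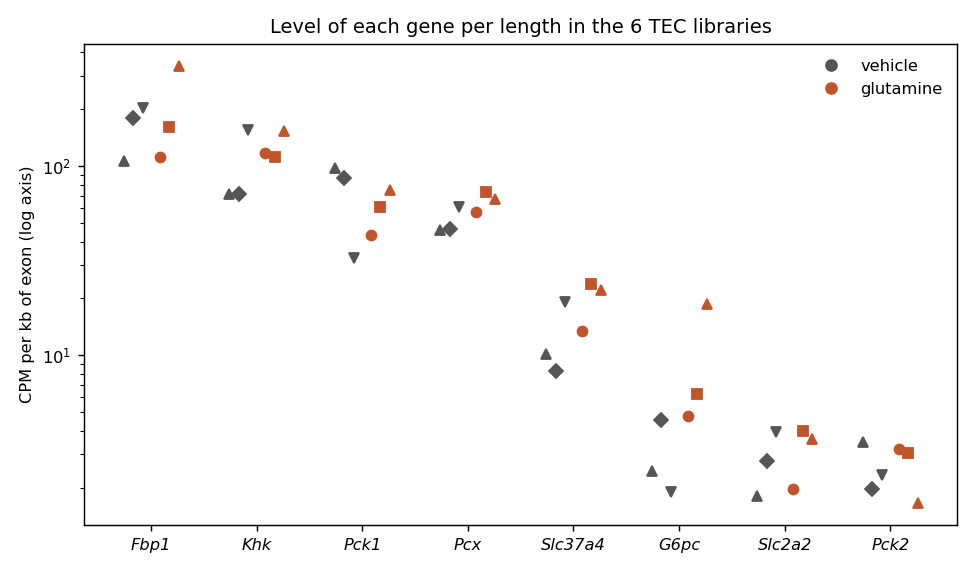
Level of each of the 8 genes in each TEC library, in CPM per kb of exon on a log axis, with vehicle libraries in grey and glutamine libraries in orange and the marker shape giving the replicate number (circle 1, square 2, upward triangle 3, diamond 4, downward triangle 5). Pcx (mean 58.5) and Slc37a4 (mean 16.2) are the only neighbours in the order of means whose ranges do not meet.

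The comparison of glutamine with vehicle in TECs asked whether the dipeptide shifted this pathway in injured tubules. Of the 8 genes, 7 had a fold change above 0, with a median of 0.34 on the log2 scale against 0.01 over all 14734 genes, of which 50.6% were above 0. None of the 8 passed an adjusted p of 0.05 in edgeR's quasi-likelihood test, and neither did any other gene (0% called). G6pc alone had an unadjusted p under 0.05, 1 of 8, where 12.8% of all tested genes did (1879). G6pc was also the only gene of the group whose libraries did not overlap between the groups, 1 of 8, where 18.8% of all tested genes did not overlap, 9% with glutamine higher and 9.81% with glutamine lower.

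G6pc encodes the catalytic subunit of glucose-6-phosphatase, which releases free glucose in the last step of the pathway. Its level was 5.92, 11.02 and 4.59 CPM in vehicle replicates 3, 4 and 5 and 11.5, 15.1 and 45.3 CPM in glutamine replicates 1, 2 and 3. Every glutamine library was above every vehicle library, but 11.5 and 11.02 CPM nearly met and glutamine replicate 3 stood far above the rest. These levels rest on 60, 123 and 45 counts in vehicle and 96, 75 and 413 counts in glutamine. The fold change was 1.74 on the log2 scale (SE 0.53, 95% interval 0.58 to 2.90, edgeR quasi-likelihood adjusted p = 0.243). Without glutamine replicate 3 the log2 fold change was 0.88 (adjusted p = 0.424 in the same test). G6pc passed the threshold with DESeq2 (adjusted p = 0.0380) and with edgeR without a filter on low counts (adjusted p = 0.000425). With every library kept, it did not pass under the other planned scalings and filters or with limma-voom. There the adjusted p ranged from 0.181 (edgeR, at least 10 counts in every library) to 0.310 (edgeR, without predicted, Rik and sensory receptor genes).

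Slc37a4 carries glucose-6-phosphate into the endoplasmic reticulum, where the phosphatase acts. Its level was 29.2, 23.6 and 54.8 CPM in vehicle and 38.6, 67.9 and 63.7 CPM in glutamine, in the same order of replicates. The groups overlapped because vehicle replicate 5 stood above glutamine replicate 1. The log2 fold change was 0.66 (SE 0.34, 95% interval -0.08 to 1.401, edgeR adjusted p = 0.440). It was 1.098 without vehicle replicate 5 (adjusted p = 0.124) and 0.43 without vehicle replicate 4. Although both genes serve the same reaction, the CPM ratio of G6pc to Slc37a4 spanned 0.0836 in vehicle replicate 5 to 0.711 in glutamine replicate 3, 8.50-fold.

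Slc2a2, or GLUT2, is the transporter through which glucose leaves the proximal tubule cell. It was at 10.4, 15.9 and 22.6 CPM in vehicle and at 11.3, 22.9 and 20.8 CPM in glutamine, so the groups covered almost the same range. Its log2 fold change was 0.17 (SE 0.37, 95% interval -0.64 to 0.98, edgeR adjusted p = 0.882), and -0.08 to 0.48 with single libraries left out. An annotated antisense gene, 1700112D23Rik, overlaps the span of Slc2a2, but none of the 5752 stretches of 50 bases in the Slc2a2 transcripts occurs on either strand in transcripts of another gene. The use of strand in the counting is not given in the sources used here.

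Upstream in the pathway, Pcx encodes pyruvate carboxylase, the mitochondrial enzyme that turns pyruvate into oxaloacetate. Its level was 218, 221 and 289 CPM in vehicle and 274, 346 and 320 CPM in glutamine. It was the steadiest of the 8 genes, with a 1.58-fold range over the 6 libraries, and the groups overlapped only through vehicle replicate 5. Its log2 fold change was 0.37 (SE 0.20, 95% interval -0.08 to 0.81, edgeR adjusted p = 0.469). The protein-coding gene Lrfn4 lies within Pcx on the opposite strand.

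Pck1 encodes the cytosolic phosphoenolpyruvate carboxykinase, which makes phosphoenolpyruvate from oxaloacetate and is the enzyme most used to mark renal gluconeogenesis. It was the only gene of the group with a fold change below 0. Its level was 336, 298 and 113 CPM in vehicle and 149, 208 and 255 CPM in glutamine, so the vehicle group held both the highest levels and the lowest. The log2 fold change was -0.29 (SE 0.36, 95% interval -1.08 to 0.50, edgeR adjusted p = 0.767). Without vehicle replicate 5 the log2 fold change was -0.64 (adjusted p = 0.221), and without vehicle replicate 3 it was -0.02.

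Pck2 is the mitochondrial form of the same enzyme. It read 27.1, 15.4 and 18.1 CPM in vehicle and 25.11, 23.7 and 12.9 CPM in glutamine, with the highest library in one group and the lowest in the other. The log2 fold change was 0.02 (SE 0.33, 95% interval -0.71 to 0.75, edgeR adjusted p = 0.984), and its sign turned under several alternatives. Pck1 had 5.95 to 19.7 times the CPM of Pck2 in the same library. Pck2 was also the only member whose annotated transcripts share stretches of 50 bases, the read length, with other genes (138 of 8167, 69 of them with Gm4419 and 4 with the overlapping antisense gene Gm10876), so its level is less certain.

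Fbp1 encodes fructose-1,6-bisphosphatase, which undoes the phosphofructokinase step. Its level was 182, 305 and 345 CPM in vehicle and 191, 276 and 578 CPM in glutamine. Glutamine replicate 3 was the highest library and the other glutamine libraries lay inside the vehicle range. A log2 fold change of 0.33 resulted (SE 0.38, 95% interval -0.50 to 1.16, edgeR adjusted p = 0.737), and it was -0.25 without glutamine replicate 3.

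Khk encodes ketohexokinase, which phosphorylates fructose. It was at 128, 129 and 281 CPM in vehicle and at 210, 200 and 275 CPM in glutamine. The pair of low vehicle libraries lay below all glutamine libraries, whereas vehicle replicate 5 had the highest level of all 6. Its log2 fold change was 0.35 (SE 0.31, 95% interval -0.32 to 1.02, edgeR adjusted p = 0.662). With single libraries left out it ran from 0.15 without vehicle replicate 3 to 0.83 without vehicle replicate 5 (edgeR adjusted p = 0.932 and 0.125).

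**Figure D2:**
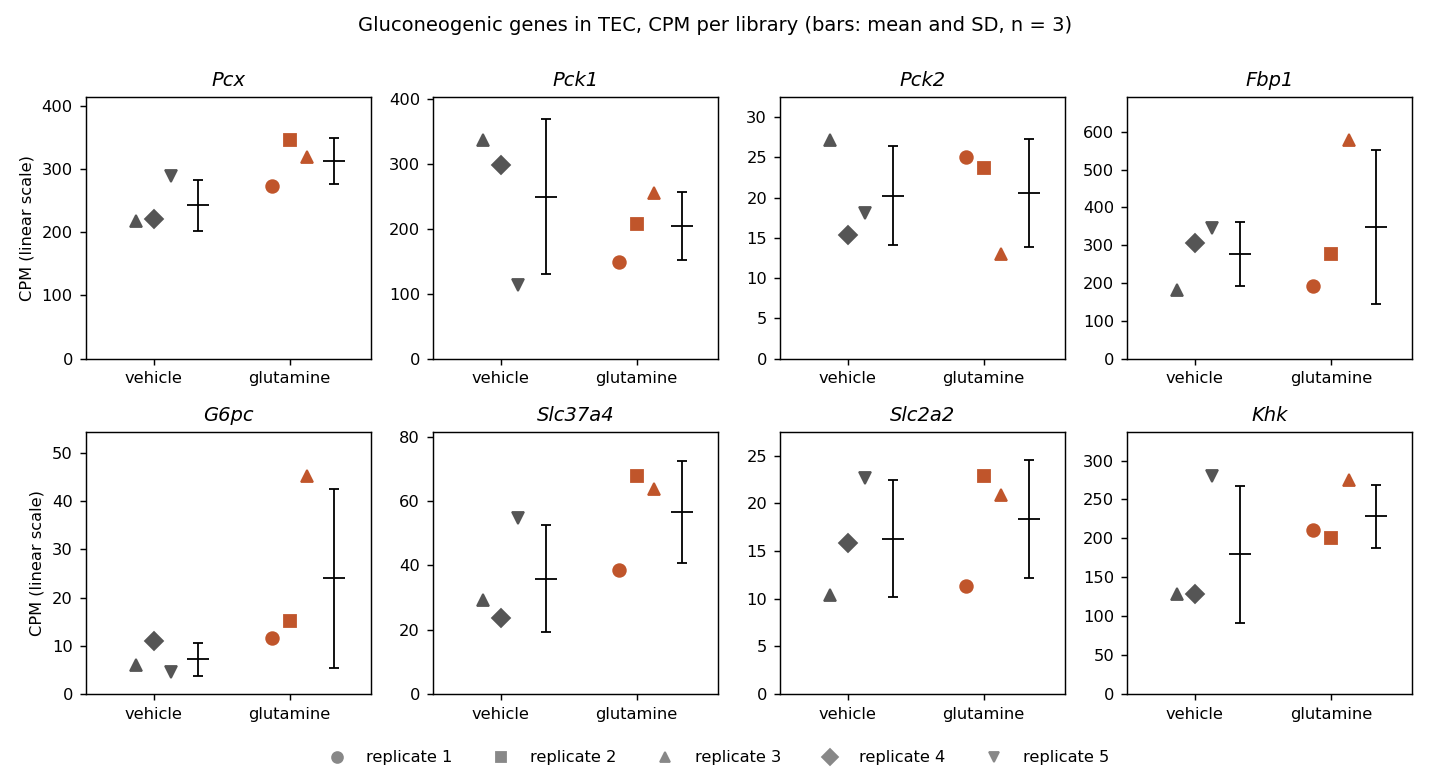
CPM of each gene in the 3 vehicle (grey) and 3 glutamine (orange) TEC libraries on linear axes that start at 0, with marker shapes for the replicate numbers and black bars for the mean and SD. Only G6pc shows every glutamine library (11.5 to 45.3 CPM) above every vehicle library (4.59 to 11.02 CPM).

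**Figure D3:**
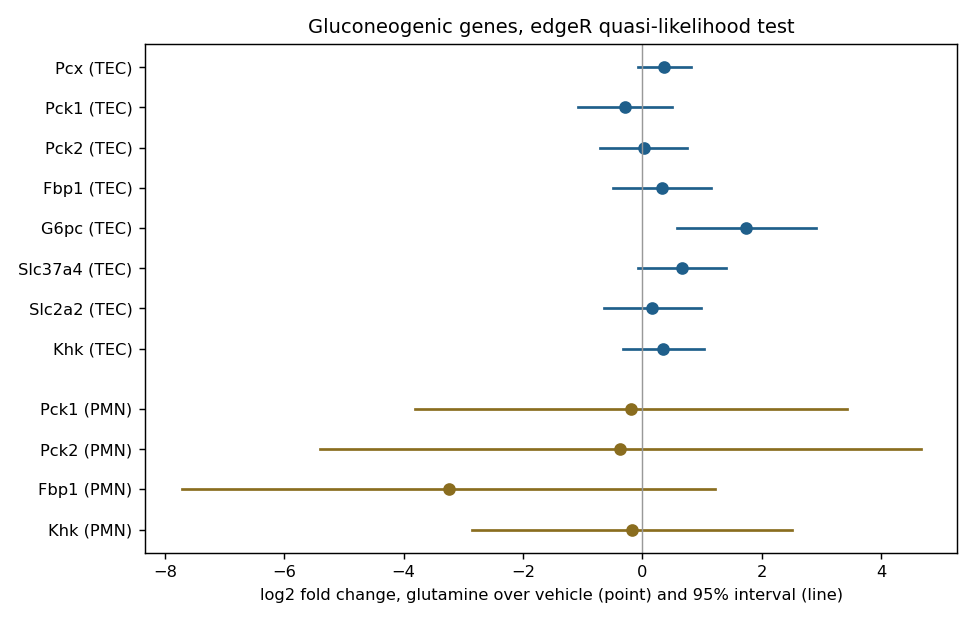
Log2 fold change of glutamine over vehicle (points) with 95% intervals (lines) for the 8 genes in TECs (blue) and the 4 tested in PMNs (brown), from the edgeR quasi-likelihood fits. The interval leaves out 0 for G6pc in TECs (0.58 to 2.90) and for none of the others, and the PMN intervals span several log2 units.

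These fold changes depended on single libraries. Leaving out vehicle replicate 5 gave an unadjusted p under 0.05 for 5 of the 8 genes and put their median at 0.51 on the log2 scale, whereas leaving out glutamine replicate 3 gave 0 of 8 and a median of 0.23. Over all tested genes, 17.7% (2743 of 15487) had an unadjusted p under 0.05 without vehicle replicate 5 and 13.6% (2093 of 15406) without glutamine replicate 3. None of the 8 passed the adjusted threshold with any library left out. The 8 genes together took 0.103%, 0.111% and 0.111% of the counts in vehicle replicates 3, 4 and 5 and 0.0875%, 0.107% and 0.147% in glutamine replicates 1, 2 and 3. The mean was 0.108% ± 0.00501 (SD, n = 3) in vehicle and 0.114% ± 0.0305 (SD, n = 3) in glutamine, which did not differ beyond the spread (two-sided exact permutation test, p = 0.9, where 0.1 is the smallest p that 3 against 3 can give).

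The 8 genes did not move as a block over the TEC libraries. Vehicle replicate 3 was below its gene's mean for Pcx, Fbp1, G6pc, Slc37a4, Slc2a2 and Khk (by 0.33 to 0.88 on the scale of log2(CPM + 1)) but above it for Pck1 (0.67) and Pck2 (0.44). Vehicle replicate 5 had the opposite layout for most genes, with Khk at 0.53 and Slc2a2 at 0.43 above their means and Pck1 at -0.90, although G6pc was also low there (-1.19). In glutamine replicate 3 G6pc (1.86) and Fbp1 (0.997) were at their highest and Pck2 (-0.57) at its lowest. The CPM ratio of Pck1 to Fbp1 ran from 0.327 in vehicle replicate 5 to 1.85 in vehicle replicate 3, 5.66-fold within one treatment group.

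**Figure D4:**
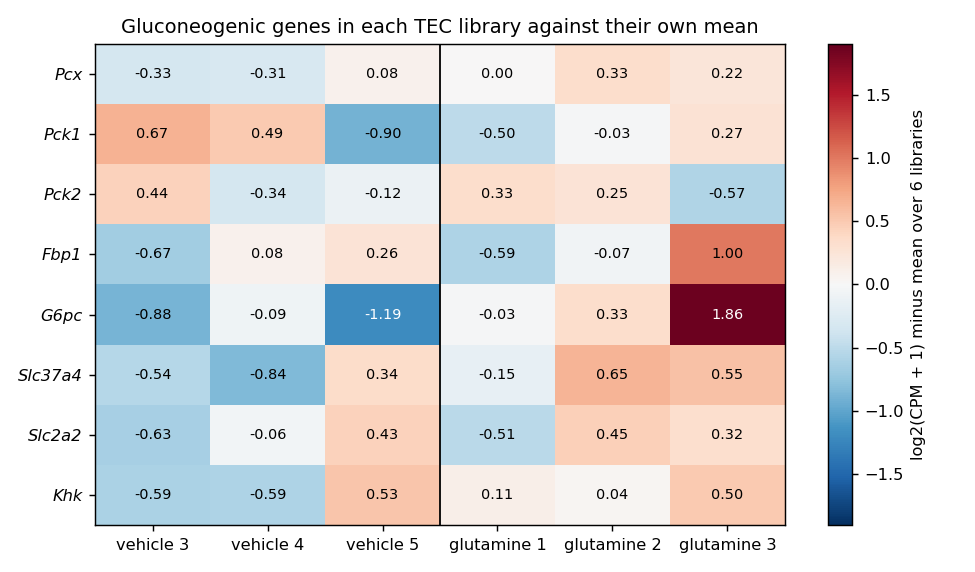
Each gene (rows) in each TEC library (columns, vehicle left of the line and glutamine right of it) as log2(CPM + 1) minus the gene's mean over the 6 libraries, printed in the cells and coloured red above and blue below the mean. Pck1 is high in vehicle replicates 3 and 4 (0.67 and 0.49), where Khk and Slc37a4 are low, and G6pc reaches 1.86 in glutamine replicate 3.

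All but Pcx of the 8 genes varied more between libraries of one group than a typical gene of their abundance. Ranked on the fitted spread among 500 genes of like abundance, G6pc stood at the percentile 97.6, Fbp1 at 96.0, Pck1 at 94.2, Khk and Slc37a4 at 88.6, Slc2a2 at 78.8 and Pck2 at 74.7, and Pcx at 39.1. From the lowest to the highest library G6pc spanned 9.88-fold, Fbp1 3.18-fold, Pck1 2.98-fold, Slc37a4 2.88-fold, Slc2a2 2.21-fold, Khk 2.19-fold and Pck2 2.10-fold.

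Most markers of the proximal tubule and of other tubule segments also had fold changes above 0. The same held in TECs for most tested markers of neutrophils (4 of 5), erythroid cells and platelets (4 of 5), macrophages (3 of 5) and stroma (2 of 3). Of the endothelial markers 2 of 6 were above 0. Of the 15 proximal tubule markers, 13 had a fold change above 0 with a median of 0.54 on the log2 scale, 6 had an unadjusted p under 0.05 and 0 passed the adjusted threshold in edgeR's test. Among all tested genes, 50.6% had a fold change above 0 and 12.8% an unadjusted p under 0.05. Their summed level was 5537, 7372 and 7747 CPM in vehicle replicates 3, 4 and 5 and 6322, 8384 and 8846 CPM in glutamine replicates 1, 2 and 3, and none of the 15 was at 0 in all libraries. Of the 6 markers of the distal convoluted and connecting tubule, 6 were above 0 (median 0.70), 3 had an unadjusted p under 0.05 and 0 passed the adjusted threshold, with a summed level of 217 to 279 CPM in vehicle and 268 to 414 CPM in glutamine. The thick ascending limb had 6 of 7 markers above 0 (median 0.15; 2 with an unadjusted p under 0.05) and summed to 1162 to 2126 CPM in vehicle and 1406 to 2524 CPM in glutamine, and the collecting duct had 4 of 5 tested above 0 (median 0.11) and summed to 116 to 247 CPM and 119 to 333 CPM. In bulk libraries, fewer proximal tubule cells and less RNA per cell cannot be told apart. The most abundant genes of the proximal tubule sum went opposite ways. Aqp1 was at 2389 CPM in vehicle and 1444 CPM in glutamine, and Slc34a1 at 1664 and 2419 CPM. The sum therefore need not follow the median of the 15 markers. Relative to the proximal tubule sum, G6pc did not overlap between the groups. It was at 1.07, 1.49 and 0.592 CPM per 1000 CPM of markers in vehicle against 1.82, 1.80 and 5.12 in glutamine. The difference was 1.38 on the log2 scale (two-sided exact permutation test, p = 0.1, the smallest possible, n = 3 per group). The same scaling gave 0.03 for Fbp1, 0.18 for Pcx, 0.25 for Khk, 0.53 for Slc37a4, -0.36 for Pck1, -0.18 for Pck2 and -0.01 for Slc2a2, and their groups overlapped. Havcr1, or KIM-1, a marker of injured proximal tubule, was at 793, 541 and 106 CPM in vehicle and 94.1, 49.4 and 26.2 CPM in glutamine, so vehicle replicate 5 again lay near the glutamine libraries. Of the 6 injury markers, Havcr1 among them, 3 had a fold change above 0 and 3 below 0 (median -0.07 on the log2 scale). Their summed level was 3033 to 5345 CPM in vehicle and 3096 to 3314 CPM in glutamine, and 1 of the 6, Havcr1, had an unadjusted p under 0.05. Predicted, Rik and sensory receptor genes took 17.5% to 23.3% of the counts in vehicle and 26.4% to 30.8% in glutamine. The part of injury, of cell makeup and of these genes in the values above was not tested.

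Around the 8 genes, 7 lists of pathway partners were read in the same fit, and 0 genes of any list passed the adjusted threshold. For the entry of lactate, alanine, aspartate and malate, 7 of 14 genes were above 0 (median -0.01), with the lactate dehydrogenase subunits Ldhb at 756 CPM in vehicle and 895 CPM in glutamine and Ldha at 357 and 303 CPM. The pyruvate and lactate transporter Slc16a7 was at 10.8 and 20.02 CPM without overlap (log2 fold change 0.89, edgeR adjusted p = 0.293). From glutamine to oxaloacetate 8 of 12 were above 0 (median 0.06). The glutamine transporter Slc1a5 was at 35.4 CPM in vehicle and 64.6 CPM in glutamine, with no overlap (log2 fold change 0.86, edgeR adjusted p = 0.243), whereas Glud1, glutamate dehydrogenase, was at 323 and 263 CPM. The list from glutamine to oxaloacetate holds the first steps of glutamine use. Slc16a7, 1 of 14 in its list, and Slc1a5, 1 of 12, had an unadjusted p under 0.05, where 12.8% of all tested genes did. The groups did not overlap for 1 of the 14 and 2 of the 12, where 18.8% of all tested genes did not overlap.

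Among the glycolytic enzymes that oppose the pathway, 8 of 8 tested were above 0 (median 0.38), and hexokinase Hk1 was at 97.8 CPM in vehicle and 142 CPM in glutamine (log2 fold change 0.54, edgeR adjusted p = 0.359). Pyruvate kinase Pkm was at 290 and 387 CPM. The groups did not overlap for 2 of these 8, Hk1 among them, where 18.8% of all tested genes did not overlap. The reversible steps shared by both pathways had 3 of 7 above 0 (median -0.03), with Gapdh at 2393 and 2293 CPM. The median of the opposing enzymes stood beside 0.34 for the 8 gluconeogenic genes.

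Of the fructose, sorbitol and triose partners of ketohexokinase, 6 of 9 were above 0 (median 0.23). Akr1b3, aldose reductase, which starts the conversion of glucose to fructose through sorbitol, had the smallest unadjusted p of all 7 lists. It was at 63.3, 41.1 and 36.6 CPM in vehicle and 11.1, 8.03 and 22.5 CPM in glutamine, with no overlap (log2 fold change -1.75, SE 0.38, edgeR adjusted p = 0.178). The related Akr1b8 was at 70.7 CPM in vehicle and 30.0 CPM in glutamine (log2 fold change -1.24, edgeR adjusted p = 0.295). The relatives of glucose-6-phosphatase and of the hexose transporters had 2 of 8 tested above 0 (median -0.21). One of these, Slc5a2, the sodium-glucose cotransporter SGLT2, was at 1.69 CPM in vehicle and 7.21 CPM in glutamine without overlap (log2 fold change 2.06, edgeR adjusted p = 0.255), while the facilitative transporter Slc2a1 was at 166 and 145 CPM. The groups did not overlap for 1 of these 8 and for 1 of the 9 partners of ketohexokinase, where 18.8% of all tested genes did not overlap.

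Of the transcriptional regulators of gluconeogenesis, 6 of 15 tested were above 0 (median -0.13). Klf15, a factor that promotes gluconeogenesis, was at 4.31 CPM in vehicle and 1.25 CPM in glutamine without overlap (log2 fold change -1.79, edgeR adjusted p = 0.296). The carbohydrate response factor Mlxipl was at 25.7 and 34.7 CPM, also without overlap. Cebpb was at 279 and 256 CPM and Hnf4a, a master regulator of the proximal tubule, at 96.8 and 87.6 CPM. The groups did not overlap for 3 of the 15 regulators tested, where 18.8% of all tested genes did not overlap. By profile over the 6 TEC libraries, the genes most like the mean standardised level of the 8 were Slc5a12, a lactate transporter of the proximal tubule (Pearson r = 0.993), Sap130 (0.988), Cdcp1 (0.987), Rsad2 (0.985) and Pcnx (0.983). These values were picked as the highest among 14734 genes over 6 libraries that share groups, and are a description. Pcx and Slc37a4 followed the mean profile most closely of the 8 (both r = 0.92), and Pck2 (-0.43) and Pck1 (-0.20) ran against it. Each of the 8 is itself part of that mean, which raises its r.

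In PMNs, labelled as blood neutrophils, the 8 genes were low and uneven. Together they took 0.0104% ± 0.00662 of the counts in vehicle and 0.00708% ± 0.00303 in glutamine (SD, n = 3 each; two-sided exact permutation test, p = 0.7). Khk had the highest level of the 8 per length, 28.9 ± 18.3 CPM per kb, above the next gene, Fbp1 (4.07 ± 5.78), in 6 of 6 libraries, although their ranges met. The other neighbours did not differ beyond their spread. None of the 4 genes tested passed an adjusted p of 0.05 in edgeR's test and none of all 10134 did (0% called), and 0 of the 4 had an unadjusted p under 0.05, where 3.48% of all tested genes did (353). The groups overlapped for all 8 genes, where 10.5% of all tested genes did not overlap, 5.86% with glutamine higher and 4.64% with glutamine lower.

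Khk was at 80.6, 76.9 and 8.14 CPM in vehicle replicates 1, 2 and 3 and at 52.5, 78.4 and 15.4 CPM in glutamine replicates 1, 2 and 3. One library of each group stood far below the others. The log2 fold change was -0.18 (SE 1.13, 95% interval -2.86 to 2.50, edgeR adjusted p = 0.99995). Fbp1 was at 13.2, 24.3 and 0.0952 CPM in vehicle and at 1.004, 1.79 and 1.152 CPM in glutamine, so the vehicle group held both extremes (log2 fold change -3.25, SE 1.88, 95% interval -7.71 to 1.22).

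Pck1 was at 1.96, 31.2 and 7.52 CPM in vehicle and at 7.24, 20.04 and 8.37 CPM in glutamine (log2 fold change -0.19, SE 1.52, 95% interval -3.81 to 3.42). Pck2 was at 0.251, 1.41 and 26.4 CPM in vehicle and at 0.740, 0.988 and 19.9 CPM in glutamine (log2 fold change -0.37, SE 2.12, 95% interval -5.40 to 4.66). For both genes a library of each group carried most of the counts. The intervals of these 4 genes include 0 and are several log2 units wide, so a difference between the groups was not detectable.

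The other 4 genes did not pass the filter in PMNs. Slc37a4 had 871 counts in vehicle replicate 2, 39 in glutamine replicate 3 and 0 or 1 in each of the other 4 libraries. Pcx had 2, 7 and 10 counts in vehicle and 5, 33 and 96 in glutamine, Slc2a2 had 31 counts in vehicle replicate 1, 1 in glutamine replicate 2 and 0 elsewhere, and G6pc had 12 counts over all 6 libraries. A count of 0 allows up to 3 counts by counting error alone. Proximal tubule markers summed to 119 to 202 CPM in PMN libraries against 5537 to 8846 CPM in TEC libraries, with Slc5a12 at 0 in 5 of 6 and Slc34a1 at 3.66 to 44.1 CPM. Vehicle replicate 2, which had the highest Pck1, Fbp1 and Slc37a4, also had endothelial markers at 2158 CPM against 2.76 to 60.7 CPM in the other libraries, and vehicle replicate 1 had thick ascending limb markers at 1076 CPM against 4.24 to 43.5 CPM. Macrophage markers, 7 of 7 detected, summed to 2229 to 5049 CPM in vehicle and 2592 to 8404 CPM in glutamine, beside neutrophil markers at 29051 to 50603 CPM and 20209 to 68866 CPM. Glutamine replicate 3, which had the most Pcx counts, had the highest macrophage sum and the lowest neutrophil sum. Whether these cells or their RNA contributed to the gluconeogenic genes was not tested.

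**Figure D5:**
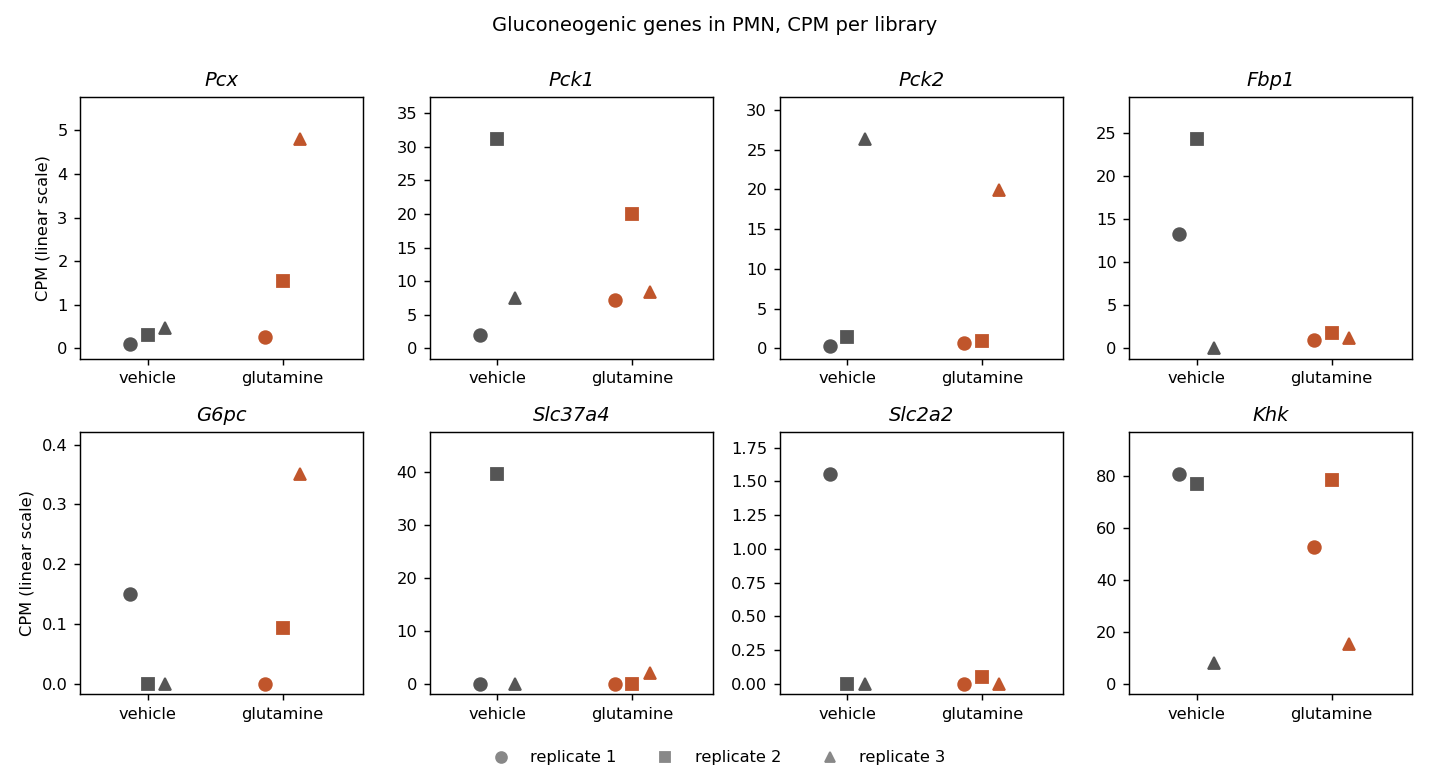
CPM of each gene in the 3 vehicle (grey) and 3 glutamine (orange) PMN libraries on linear axes, with marker shapes for the library numbers, which do not pair the libraries. Most genes are carried by 1 or 2 libraries, such as Slc37a4 at 39.7 CPM in vehicle replicate 2, and Khk reaches 80.6 CPM.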

How the data were processed

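RNA was sequenced as 50-base single-end reads in 6 TEC and 6 PMN libraries. Per the labels, the authors trimmed reads with Trim Galore 0.6.4 and quantified them with Salmon 1.0.0 against mm10; the annotation is not given in the sources used here. The deposited values are estimated counts per gene symbol, rounded here to whole numbers. Of the TEC values 83.0% were whole. Of the PMN cells 3.20% carried extra decimal points and 0.391% a date in place of the number, and these were decoded; the deposited table has a pair of columns per PMN library, which were averaged.

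Each cell type was fitted alone with edgeR 4.0.16 (R 4.3.3): default filter on low counts, TMM scaling, quasi-likelihood test, Benjamini-Hochberg adjustment over all tested genes, threshold 0.05, intervals at 95%. CPM used the same scaling. Levels per kb used the merged exons of GENCODE (GRCm38), and promoters came from RefSeq. A shared value over libraries was compared by a two-sided exact permutation test. Alternatives were DESeq2 1.42.0, limma 3.58.1 (voom), other scalings, other filters, each library left out, single PMN columns, and, added after seeing the data, scaling to proximal tubule markers. The fit was tested on simulated data, but the outcome is not reported here and no result above rests on it.

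The 8 genes and the lists were chosen with earlier results of these data known. All 8 were named, and of each partner list the 2 genes with the smallest unadjusted p and the 2 with the highest CPM, most of which are given (1 is not reported here), and the 5 genes with the most similar profile; Havcr1 and the genes given for cell type checks fall outside that rule and were chosen after their values were seen. Counting error grows as totals fall, and floors cover counting error only.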

Additional observations from a re-analysis of the deposited data

How the results depend on the processing

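In TECs, DESeq2 called 308 genes and edgeR without a filter on low counts 425, where the filtered edgeR test called 0 and limma-voom 0; both called 1 of the 8 genes, G6pc (log2 fold change 1.75 and 1.72). Leaving out each library gave 0 to 36 genes, 36 without glutamine replicate 2 and 4 without vehicle replicate 5, and 0 of the 8. The difference in the share of counts ranged from -0.0112 (without glutamine replicate 3) to 0.0187 percentage points, and the median log2 fold change of the 8 from 0.22 to 0.51. The sign of Pck2 turned with limma-voom (-0.0248), without the filter (-0.00638), relative to proximal tubule markers (-0.18) and over libraries left out (-0.15 to 0.29). Slc2a2 turned relative to the markers (-0.0109) and over libraries left out (-0.0779 to 0.48), and Fbp1 without glutamine replicate 3 (-0.25 to 0.62). In PMNs, DESeq2 called 239 genes and 0 of the 8, where edgeR called 0; no library left out gave a call. With limma-voom Pck1 (0.45), Pck2 (0.18) and Khk (0.13) turned; over libraries left out Pck1 ranged from -0.84 to 1.32, Pck2 from -3.43 to 3.10, Khk from -0.74 to 0.24, the median from -1.59 (without glutamine replicate 3) to -0.0794, and the share difference from -0.00637 to 0.000191 (without vehicle replicate 2). The cause was not tested. Of the values of single genes under alternatives that kept all libraries, the marker scaling aside, 52 of 56 in TECs and 31 of 34 in PMNs kept direction and side of the threshold. A filter of 10 counts in every library left 2 of the 8 genes in PMNs. No paired analysis was possible because 3 is the only replicate number found in both TEC groups, and the PMN labels carry none. Low counts of G6pc and the wide PMN spread limit what these libraries can show.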

Other observations

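Several glycolytic genes of the partner lists were abundant in the PMN libraries. Pyruvate kinase Pkm was at 2187 to 3592 CPM over the 6 libraries, Gapdh at 1491 to 1986 CPM, lactate dehydrogenase Ldha at 625 to 1176 CPM and aldolase Aldoa at 450 to 972 CPM. The glucose transporter Slc2a3 was at 84.9 to 374 CPM and the leukocyte hexokinase Hk3 at 37.2 to 147 CPM. Other glycolytic genes of the same lists were low or uneven, with Hk1 at 0 to 97.0 CPM, Hk2 at 1.14 to 64.7 CPM, Pfkp at 0.201 to 184 CPM, Pfkm at 0 to 0.659 CPM and Pklr at 0 to 0.0470 CPM, beside 8.14 to 80.6 CPM for Khk. None of the abundant genes differed past the adjusted threshold between glutamine and vehicle in edgeR's quasi-likelihood test, with log2 fold changes of 0.14 for Pkm (SE 0.22), -0.11 for Gapdh (SE 0.18), -0.02 for Ldha (SE 0.31), -0.42 for Aldoa (SE 0.32), 0.46 for Slc2a3 (SE 0.59) and 0.73 for Hk3 (SE 0.78). These genes were chosen from the partner lists after their values were seen.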
